A study of Mus musculus with 4 samples.

Results

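Mast cells made up 100 of 23294 barcodes kept from 4 single-cell RNA-seq libraries of cells sorted from TC-1 tumours, and they were found in the PBS library and in the libraries taken 1 and 3 days after cisplatin. A barcode was called a mast cell when it had at least 500 genes, at most 10% of its UMIs (counts of single captured RNA molecules) from mitochondrial genes, and at least 0.5% of its UMIs from Cpa3, Mcpt4, Cma1 and Tpsb2 together. These 4 genes encode granule proteases of mast cells. The 100 barcodes comprised 26 in the PBS library, 61 on day 1, 13 on day 3 and 0 on day 7. The members were thus chosen by the measured levels of these 4 genes, which are given below as a description.

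TC-1 is a mouse lung epithelial tumour line, and 300000 of its cells were injected under the skin of wild-type C57/bl6 mice. When tumours reached 40 mm², mice received 1 dose of cisplatin at 6 mg/kg or PBS into the peritoneum, and cisplatin-treated tumours were taken on day 1, 3 or 7. For the PBS library no collection day is labelled, and its source label reads no treatment where its treatment label reads PBS. Cells were sorted by a gate for innate lymphoid cells (CD45+, lineage-negative, CD90+, CD127+), and each of the 4 groups is 1 library with no stated number of pooled mice. There is therefore no replicate check and no p-value in what follows, and every interval is a 95% interval that covers counting error only.

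Mast cells are tissue-resident cells of the haematopoietic lineage that depend on the receptor KIT and carry IgE on the high-affinity receptor FcεRI. Their granules hold proteases (chymases, tryptases and carboxypeptidase A3), histamine and serotonin bound to heparin-like chains on serglycin, and crosslinking of IgE or engagement of Mrgprb2 releases them. In mice, connective tissue mast cells carry Mcpt4, Cma1, Cpa3 and Tpsb2, and mucosal mast cells, which are induced by TGF-β and T cell cytokines, carry Mcpt1 and Mcpt2. Cisplatin crosslinks DNA and activates p53.

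The libraries held 10063 barcodes for PBS, 10745 for day 1, 6264 for day 3 and 2981 for day 7, of which 8075, 7484, 4964 and 2771 passed the gene and mitochondrial limits. Mast cells had a median of 2404.5 UMIs in the PBS library, 3890 on day 1 and 2846 on day 3, against medians of 6354, 9185 and 6233 in the other kept barcodes of the same libraries. Their median mitochondrial share was 4.63%, 6.13% and 6.55% in the same order. Each pair of libraries shared 4 to 32 barcode sequences, among them 2 mast cells in the PBS and day 1 pair and no barcode called a mast cell in both. No doublets were removed.

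The genes of the sort gate were thinly covered in mast cells. Thy1, which encodes CD90, had 0, 1 and 0 UMIs in the PBS, day 1 and day 3 mast cells. Il7r, which encodes CD127, had 1, 30 and 4 UMIs, and Ptprc, which encodes CD45, had 12, 42 and 7. Markers of T, NK and ILC1 cells were near 0 in the 100 cells. The 14 T cell genes summed to 22 UMIs with Cd8a, Cd8b1, Lck and Cd5 at 0. The 10 NK and ILC1 genes summed to 8 UMIs with Ncr1, Klrb1c, Eomes and Tbx21 at 0. The ILC2 list, which shares Il1rl1 and Il13 with mast cells, summed to 426 UMIs with Gata3 and Il5 at 0. Mcpt8, a basophil protease, had 0, 4 and 3 UMIs. The whole basophil list of 11 genes was not near 0, with 881, 3943 and 823 UMIs in PBS, day 1 and day 3. It shares Cpa3, Fcer1a, Ms4a2, Hdc, Gata2 and Cyp11a1 with mast cells.

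Macrophage RNA was the main foreign signal. The 14 macrophage markers, which include Apoe, Lyz2 and C1qa, summed to 5416 CPM (UMIs scaled to a total of 1000000) in PBS mast cells, 6016 on day 1 and 2018 on day 3, against 41255, 46639 and 33196 CPM in the other kept barcodes. All 14 had UMIs in the PBS and day 1 mast cells and 10 in the day 3 mast cells. Macrophage markers exceeded 1% of the UMIs of 3, 9 and 1 mast cells. Whether these UMIs are free RNA, doublets or transcripts of the mast cells cannot be told apart here.

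Mast cells were 0.322% of the kept barcodes in the PBS library (95% Clopper-Pearson interval 0.210% to 0.471%), 0.815% of those on day 1 (interval 0.624% to 1.05%) and 0.262% of those on day 3 (interval 0.140% to 0.447%). On day 7 there were 0 of 2771, which allows a share of up to 0.108% (3 counts of the total; the Clopper-Pearson upper bound is 0.133%). The day 1 share lay above the PBS and day 3 shares beyond counting error. It depended on the mitochondrial limit: with at most 5% mitochondrial UMIs the shares were 0.233% (17 of 7305 barcodes), 0.249% (15 of 6031) and 0.0913% (4 of 4382) for PBS, day 1 and day 3, and the PBS and day 1 intervals then overlapped. The sort sets how many mast cells a library can hold, so these are shares of sorted barcodes and not of the tumour. Only 689 of the 8075 kept PBS barcodes, 728 of 7484 on day 1, 1001 of 4964 on day 3 and 352 of 2771 on day 7 had at most 1% of their UMIs from macrophage markers. The barcodes that mast cells are set against were thus mostly rich in macrophage RNA, which goes against the gate for innate lymphoid cells.

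**Figure D1:**
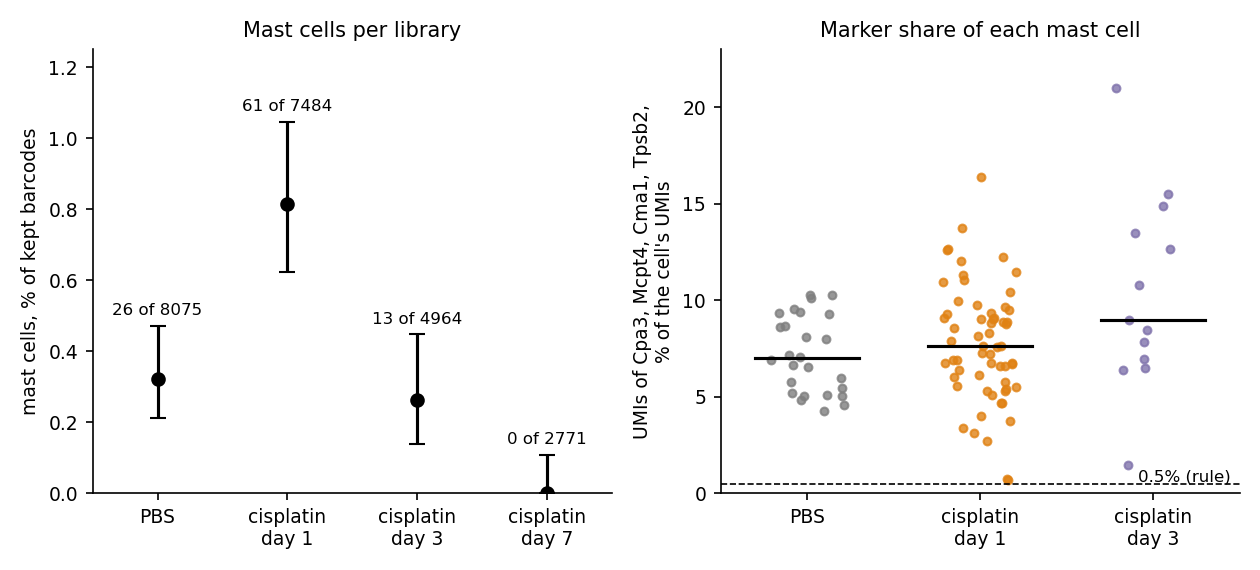
Left, mast cells as a percentage of the kept barcodes of each library, with exact 95% intervals (counting error only), except on day 7, where the bar ends at the limit of 3 counts, 0.108%. Right, the share of each mast cell's UMIs that came from Cpa3, Mcpt4, Cma1 and Tpsb2, 1 point per cell, with the median as a bar; most cells lie far above the 0.5% limit.

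The limit of 0.5% fell in a sparse range. The 4 genes took a median of 6.98% of a mast cell's UMIs in the PBS library (range 4.27% to 10.3%), 7.61% on day 1 (range 0.699% to 16.4%) and 9.0% on day 3 (range 1.47% to 21.0%). The lowest members had 4.27% and 4.55% in PBS, 0.699% and 0.746% on day 1, and 1.47% and 6.36% on day 3. The highest barcodes left out had 0.459% in PBS, 0.302% on day 1, 0.105% on day 3 and 0.0355% on day 7. Between 0.25% and 0.5% PBS had 1 barcode, day 1 had 2, and day 3 and day 7 had 0. The barcodes left out held 710, 3261, 280 and 5 UMIs of the 4 genes in PBS, day 1, day 3 and day 7. That is 12.5 CPM in PBS, 43.0 CPM on day 1 and 8.09 CPM on day 3, so day 1 had the most marker RNA outside the called cells.

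The mast cells were set against the other kept barcodes gene by gene, with the 4 genes of the rule left in. Of 1968 genes with at least 20 UMIs in mast cells, 125 stood at least 4-fold above the other kept barcodes in each of the 3 libraries and 41 at least 4-fold below. This contrast is a description, since the rule chose the cells within it. The 30 genes with the highest lowest ratio were ranked without leaving out the rule's genes. Among those 30, genes the rule did not use included Ms4a2 and Fcer1a, the β and α chains of FcεRI, which basophils also carry. Ms4a2 had 374, 557 and 757 CPM in the PBS, day 1 and day 3 mast cells, against 0.0877, 0.224 and 0.0867 CPM in the other barcodes. Others were Mrgprb2, the receptor for basic secretagogues, Hdc, which makes histamine, Tph1, which starts serotonin synthesis, Cyp11a1, the first enzyme of steroid synthesis, Il13, and the tryptases Tpsab1 and Tpsg1.

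**Figure D2:**
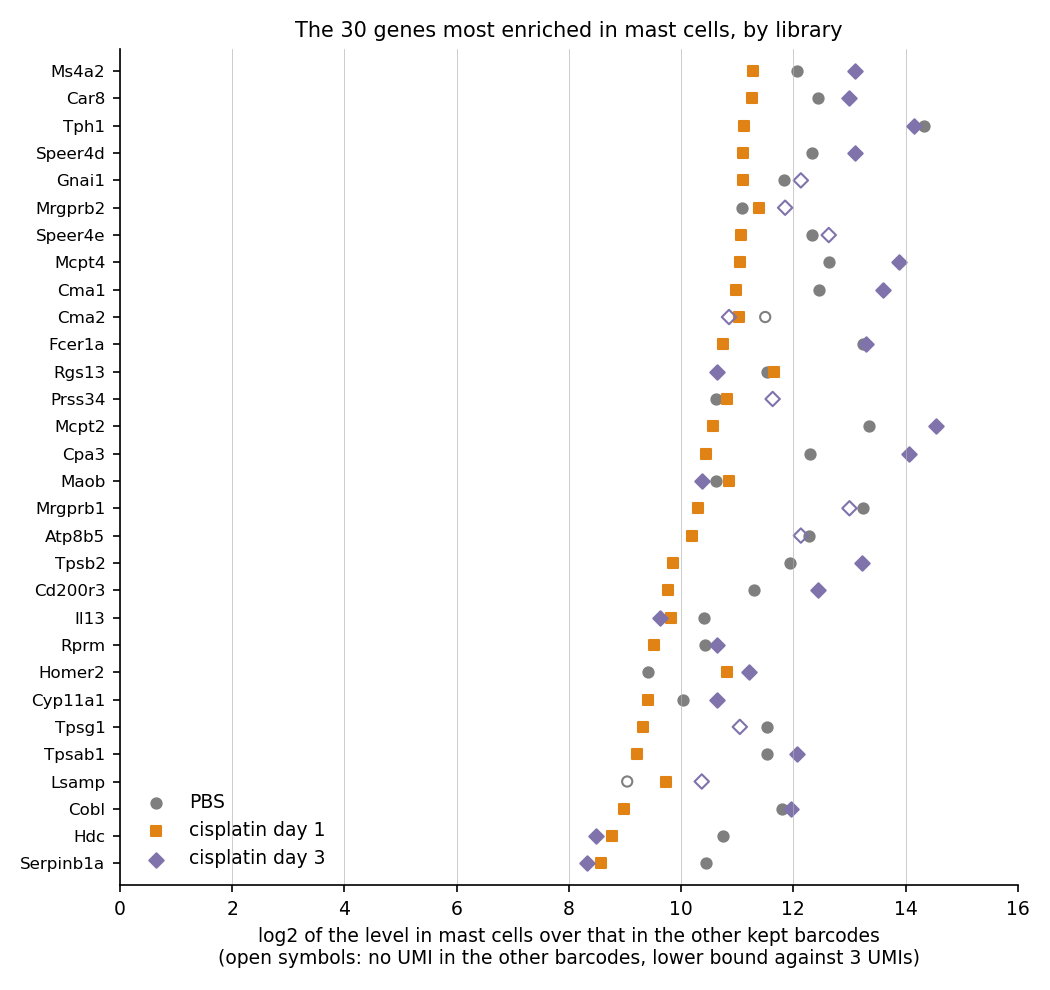
The 30 genes ranked by their lowest ratio over the 3 libraries, mast cells over the other kept barcodes of the same library, as log2 ratios of CPM. The lowest ratios run from 8.32 (Serpinb1a) to 11.3 (Ms4a2); genes at 0 in the other barcodes are drawn at their lower bound.

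Kit, the receptor for stem cell factor, had 374, 419 and 252 CPM in PBS, day 1 and day 3 mast cells, against 0.526, 2.51 and 3.47 CPM in the other barcodes. After each cell was thinned to 2000 UMIs, Kit was seen in 52.9%, 46.4% and 54.5% of the 17, 56 and 11 cells deep enough, against 0.2%, 0.4% and 0.7% of 1000 other barcodes from each library. Il1rl1, the receptor for IL-33, had 471, 747 and 917 CPM, and Mrgprb2 had 152, 249 and 321 CPM. Mrgprb2, a marker of connective tissue mast cells that the rule did not use, was thus present in all 3 libraries, and so was Mcpt2, a marker of mucosal mast cells.

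The promoters of the granule and IgE receptor genes are shown because GATA factors, with MITF, are known to drive mast cell genes. The RefSeq table (build GRCm38.p6) held 250 bases upstream of the start for Cpa3 (chr3:20242182-20242431), Cma1 (chr14:55944676-55944925), Mcpt4 (chr14:56062311-56062560) and Fcer1a (chr1:173227230-173227479), all on the minus strand. Capitals mark GATAA and CATGTG, searched on both strands, so that TTATC and CACATG are the same motifs read from the other strand; the marked motifs do not overlap.
Cpa3: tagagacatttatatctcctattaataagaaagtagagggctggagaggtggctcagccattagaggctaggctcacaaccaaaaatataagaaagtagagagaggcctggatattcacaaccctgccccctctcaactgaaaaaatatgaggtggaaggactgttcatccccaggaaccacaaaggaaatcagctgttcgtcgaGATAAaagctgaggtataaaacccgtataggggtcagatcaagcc
Cma1: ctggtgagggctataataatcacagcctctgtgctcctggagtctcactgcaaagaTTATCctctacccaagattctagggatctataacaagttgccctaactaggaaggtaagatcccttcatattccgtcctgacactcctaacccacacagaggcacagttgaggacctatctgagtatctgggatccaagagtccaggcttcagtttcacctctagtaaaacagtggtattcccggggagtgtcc
Mcpt4: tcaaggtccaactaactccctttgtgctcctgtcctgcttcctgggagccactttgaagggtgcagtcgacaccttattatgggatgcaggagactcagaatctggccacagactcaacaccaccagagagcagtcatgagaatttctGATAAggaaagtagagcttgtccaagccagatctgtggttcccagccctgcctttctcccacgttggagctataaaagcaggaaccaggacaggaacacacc
Fcer1a: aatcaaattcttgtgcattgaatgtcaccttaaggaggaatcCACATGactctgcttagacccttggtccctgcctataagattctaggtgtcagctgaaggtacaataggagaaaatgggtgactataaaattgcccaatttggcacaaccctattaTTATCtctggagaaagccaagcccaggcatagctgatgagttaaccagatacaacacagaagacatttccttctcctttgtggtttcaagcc
Each of the 4 windows held 1 GATAA, and Fcer1a also held 1 CATGTG. Of all 32851 promoter windows of this length, 22.6% held GATAA and 12.3% held CATGTG, so these matches are common and mark no site of binding.

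In all, 3 comparisons of summed mast cell UMIs were made, and a gene was called higher or lower at a ratio of at least 1.5 with an interval excluding 1, among genes with at least 20 UMIs over both libraries and UMIs in at least 3 cells of the higher one. Of 1772 genes measured on day 1 against PBS, 66 (3.72%) were higher and 96 (5.42%) lower. Of 735 genes on day 3 against PBS, 56 (7.62%) were higher and 98 (13.3%) lower. Of 1614 genes on day 3 against day 1, 81 (5.02%) were higher and 78 (4.83%) lower. The comparisons share libraries and are not independent. A scarce gene can pass the minimum through the library where it is high, so counts and medians over the measured members of a list describe those members and not the whole list. The split depended on the scaling: with edgeR's TMM factors the higher and lower counts were 158 and 37, 45 and 130, and 26 and 253, and with DESeq2 size factors 98 and 63, 45 and 132, and 41 and 171. TMM moved every log2 ratio by 0.28, −0.11 and −0.39 in the 3 comparisons, and DESeq2 by 0.13, −0.13 and −0.27.

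The mucosal chymase Mcpt2 showed the widest difference between libraries among the proteases. It had 1014 UMIs in 26 PBS mast cells, 1371 UMIs in 61 day 1 mast cells and 30 UMIs in 13 day 3 mast cells, or 14047, 5419 and 688 CPM. Against PBS it was 2.59-fold lower on day 1 (log2 −1.37, −1.49 to −1.26) and 20.4-fold lower on day 3 (log2 −4.35, −4.93 to −3.83), and on day 3 it was 7.88-fold lower than on day 1. The other barcodes held 1.35, 3.55 and 0.0289 CPM of it. Without the cell richest in Mcpt2, the log2 ratio to PBS was −1.60 on day 1 and −4.12 on day 3.

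Mcpt2 was uneven from cell to cell. Per cell it ranged from 0 to 199 UMIs in the PBS library with a median of 12.5, from 0 to 232 on day 1 with a median of 2, and on day 3 from 0 to 11 with a median of 1. Cells with 10 or more UMIs numbered 14 of 26, 26 of 61 and 1 of 13. Cells with 0 UMIs numbered 5 of 26, 22 of 61 and 6 of 13. These counts are not adjusted for the unequal depth of the cells. The ranges overlap, and the share of cells with 10 or more UMIs was lowest on day 3. The 3 richest cells held 50.7% of the Mcpt2 UMIs in the PBS library, 37.1% on day 1 and 80% on day 3. At 2000 UMIs a cell, 70.6%, 66.1% and 54.5% of mast cells had Mcpt2, against 0.4%, 0.5% and 0% of other barcodes, and the intervals of the 3 mast cell shares overlap. Its mucosal neighbour Mcpt1 had 3, 15 and 0 UMIs. The 8 genes of the mucosal list summed to 1022, 1431 and 41 UMIs in PBS, day 1 and day 3, most of them from Mcpt2. Another member, Tgfbr1, was called higher on day 1 than in PBS (log2 3.05), a call lost without the mast cells rich in macrophage markers.

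**Figure D3:**
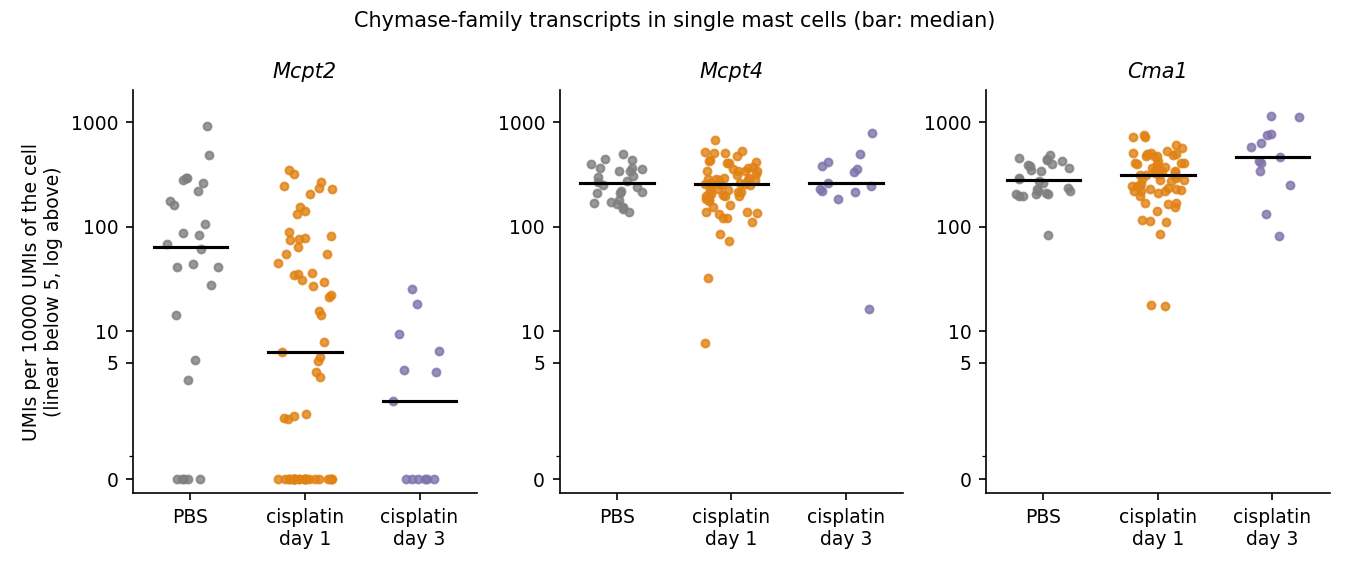
Chymase transcripts in single mast cells, 1 point per cell and the median as a bar, in the PBS, day 1 and day 3 libraries. Mcpt2 spreads over a wide range and sits low on day 3, where only 1 of 13 cells had 10 or more UMIs, while Cma1 and Mcpt4 were found in every mast cell.

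The other chymases went a different way, with levels that the rule used and that are described without weight. Cma1 had 28662 CPM in PBS, 32330 CPM on day 1 and 54532 CPM on day 3, and was 1.9-fold higher on day 3 than in PBS. Mcpt4 had 26210, 25807 and 33527 CPM, with no call in any comparison. Cpa3 had 8187, 10416 and 10388 CPM and Tpsb2 6178, 6890 and 8072 CPM, also with no call. Prss34, a protease of the basophil list that the rule did not use, was called higher on day 3 than on day 1 (log2 1.54). Cma1 (chr14:55941451-55944675, minus strand), Mcpt2 (chr14:56042041-56044642, plus strand) and Mcpt4 (chr14:56059629-56062313, minus strand) lie in 1 cluster of chymase and granzyme genes on chromosome 14. The proteases of this cluster and the tryptases on chromosome 17 have close copies, and how the deposited counts treated reads that match several copies is not given in the sources used here.

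The transcript of the IgE-binding α chain was higher on both days after cisplatin. Fcer1a had 1191 CPM in PBS mast cells, 1901 CPM on day 1 and 3486 CPM on day 3. Its medians of 2, 6 and 13 UMIs a cell are not adjusted for depth. At 2000 UMIs a cell Fcer1a was seen in 70.6%, 71.4% and 90.9% of mast cells, with overlapping intervals. It was 1.6-fold higher on day 1 than in PBS (1.27 to 2.03), a call lost without the mast cells rich in macrophage markers (log2 0.50), and 2.93-fold higher on day 3 (2.23 to 3.86). On day 3 it was 1.83-fold higher than on day 1, a call lost under TMM (log2 0.48). The β chain Ms4a2 was 2.02-fold higher on day 3 than in PBS (1.18 to 3.5), and the shared γ chain Fcer1g had 5763, 5814 and 7568 CPM with no call. Of the IgE signalling list, 17, 8 and 15 genes were measured on day 1 against PBS, day 3 against PBS and day 3 against day 1, and 1, 3 and 4 were higher and 0 lower, or 1 of 17 beside 3.72% of all genes, 3 of 8 beside 7.62% and 4 of 15 beside 5.02%; the 4 calls on day 3 against day 1 were lost under TMM.

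Genes of the mast cell identity list, which shares Fcer1a, Ms4a2 and Rab27b with the IgE signalling list, were also higher on day 3. Of 9 measured on day 3 against PBS, 6 were higher, these 3 among them, beside 7.62% of all genes, and 0 lower. The median log2 ratio of the 9 was 0.96, beside −0.14 over all 735 genes. Il1rl1 was 1.95-fold higher (1.2 to 3.17) and Cyp11a1 2.69-fold higher (1.39 to 5.37), with 222, 241 and 596 CPM of Cyp11a1 in PBS, day 1 and day 3. Hdc was 1.5-fold higher, a call lost under TMM (log2 0.47) and without its richest cell (log2 0.51), and Rab27b, which helps granules reach the membrane, was 2.23-fold higher, a call lost without the macrophage-rich cells. On day 1 against PBS 3 of 14 were higher (Fcer1a, Il1rl1 and Slc6a4, the serotonin transporter), beside 3.72% of all genes, and 0 lower, with a median of 0.49 beside −0.05; the Slc6a4 call was lost without its richest cell and without the macrophage-rich cells. On day 3 against day 1 4 of 14 were higher, beside 5.02% of all genes, and 0 lower, of which Cyp11a1 alone kept its call under TMM, and the median of 0.37 was −0.02 under TMM. Mrgprb1, a receptor related to Mrgprb2, was 1.76-fold higher on day 1 than in PBS (1.24 to 2.56), with 513, 901 and 711 CPM. Kit was not called in any comparison.

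Genes for granule contents other than proteases were also higher on day 3. Srgn, which encodes the proteoglycan serglycin, had 5250 CPM in PBS, 5585 CPM on day 1 and 11420 CPM on day 3, and was 2.18-fold higher on day 3 than in PBS (1.9 to 2.49). Srgn was also higher on day 3 than in PBS in the other barcodes, which held 500, 756 and 1377 CPM. Tph1 had 1081, 791 and 2110 CPM and was 1.95-fold higher on day 3 than in PBS (1.43 to 2.67) and 2.67-fold higher than on day 1 (2.06 to 3.43). Hs3st1, a heparan sulfate 3-O-sulfotransferase, had 0, 30 and 17 UMIs in 0, 19 and 8 cells. Against a floor of 3 UMIs for the PBS cells it was at least 2.85-fold higher on day 1, and it was 3.29-fold higher on day 3 than on day 1 (1.7 to 6.16). Of the 18 genes of the histamine, serotonin and heparin list, 3 were measured on day 3 against PBS (Hdc, Tph1 and Srgn) and called higher, beside 7.62% of all genes, with the Hdc call lost as given above.

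Chemokines that recruit monocytes were abundant in mast cells and higher on day 3. Ccl7 had 9309 CPM in PBS, 10755 CPM on day 1 and 19332 CPM on day 3, against 514, 499 and 997 CPM in the other barcodes. Every one of the 100 mast cells had it, with 1 to 66 UMIs a cell in PBS, 2 to 322 a cell on day 1 and 28 to 117 a cell on day 3. It was 2.08-fold higher on day 3 than in PBS (1.87 to 2.3). Ccl2 had 2216, 2648 and 4197 CPM and was 1.89-fold higher on day 3 than in PBS (1.52 to 2.36). The calls of both on day 3 against day 1 were lost under TMM and DESeq2 size factors (Ccl7 log2 0.46 and 0.58, Ccl2 0.27 and 0.40). The whole chemokine list summed to 25523 CPM on day 3 against 12966 CPM in PBS in mast cells. In the other barcodes it summed to 14234 against 6470 CPM, so the difference was not limited to mast cells.

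Other chemokines rested on few cells or on levels below those of the other barcodes. Ccl4 was 9.46-fold higher on day 3 than in PBS, but 28 of its 40 day 3 UMIs came from 1 cell, and without the richest cell of each comparison the log2 ratio was 1.66 to PBS and 3.52 to day 1, in place of 3.24 and 2.10. Ccl1 had 13, 13 and 8 UMIs in 3, 3 and 1 cells. Ccl8 had 0, 42 and 3 UMIs and was at least 3.99-fold higher on day 1 than in PBS against the floor (a log2 bound of 2.00, or 1.33 without its richest cell), with 0, 166 and 68.8 CPM in mast cells beside 266, 595 and 606 CPM in the other barcodes. Ccl5 had 1, 40 and 1 UMIs, a ratio of 11.4 on day 1 over PBS with an interval of 1.93 to 462. The neutrophil chemokine Cxcl2 was lower on both days, with 900 CPM in PBS, 332 CPM on day 1 and 367 CPM on day 3; the other barcodes had 2339, 2738 and 4695 CPM. A single PBS cell held 44.6% of its UMIs, and without the richest cell the log2 ratios were −0.63 on day 1 and −0.49 on day 3, the day 3 one no longer called; without the macrophage-rich cells the day 1 one was −2.19. Of 5 chemokines measured on day 3 against PBS, 3 were higher and 1 lower, beside 7.62% and 13.3% of all genes.

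Among cytokines, the type 2 cytokine Il13 had 166 CPM in PBS, 154 CPM on day 1 and 527 CPM on day 3, in 5 of 26, 16 of 61 and 7 of 13 cells. It was 3.17-fold higher on day 3 than in PBS (1.52 to 7) and 3.42-fold higher than on day 1 (1.95 to 5.87). The other barcodes held at most 0.665 CPM. Tnf, which mast cells also store, was 2.9-fold higher on day 3 than in PBS (1.13 to 7.97), a call lost without its richest cell (log2 1.42), with 8, 38 and 14 UMIs. Il4 had 3, 15 and 2 UMIs and Il6 3, 17 and 3.

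Interferon-induced genes gave the highest ratios on day 3. Of the 45 genes of the type I interferon list only 4 were measured on day 3 against PBS, Isg15, Ifi27l2a, Bst2 and Ifitm3, which were scarce in PBS and reached the minimum through day 3, so their shared direction carries no weight. The whole list summed to 6513 CPM on day 3 against 803 CPM in PBS, a log2 ratio of 3.02 (2.61 to 3.45). In the other barcodes the list summed to 16068 CPM on day 3 against 4934 CPM in PBS, so the difference was not limited to mast cells, and whether it was larger in them was not tested.

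Isg15, a ubiquitin-like protein induced by interferon, had 69.3 CPM in PBS mast cells, 233 CPM on day 1 and 2614 CPM on day 3, against 94.1, 144 and 1177 CPM in the other barcodes. It was found in 5 of 26, 26 of 61 and 10 of 13 mast cells, with 0 to 1, 0 to 7 and 0 to 52 UMIs a cell, so the ranges overlap: 8 of the 13 day 3 cells lay within the day 1 range and 5 above it. On day 3 it was 37.7-fold higher than in PBS (15.7 to 118) and 11.2-fold higher than on day 1 (8.12 to 15.6), and on day 1 it was 3.37-fold higher than in PBS (1.36 to 10.8). A single day 3 cell held 52 of the 114 UMIs, and without it the day 3 log2 ratio was 4.59 to PBS and 2.84 to day 1, in place of 5.24 and 3.49. Without the macrophage-rich cells the day 1 log2 ratio to PBS was 2.35 in place of 1.75. At 2000 UMIs a cell it was seen in 11.8%, 33.9% and 54.5% of mast cells, against 12.2%, 17.2% and 66.2% of the other barcodes.

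Ifitm3, which blocks virus entry, had 83.1, 217 and 894 CPM in mast cells, against 848, 974 and 3694 CPM in the other barcodes, and was 10.8-fold higher on day 3 than in PBS (4.52 to 31.1). Bst2 (tetherin), which retains budding viruses, had 166, 225 and 826 CPM and was 4.97-fold higher (2.53 to 10.5). The MHC class I genes H2-K1 and B2m were 4.05-fold (2.6 to 6.48) and 3.06-fold (2.22 to 4.27) higher on day 3 than in PBS. B2m was already 2.05-fold higher on day 1, with 831, 1708 and 2545 CPM. Ly6a, a surface protein known to respond to interferon, had 1025, 1162 and 3715 CPM and was 3.62-fold higher on day 3 (2.74 to 4.84), while the other barcodes had 160, 284 and 1888 CPM. Isg15, Ifitm3, Bst2, H2-K1, B2m and Ly6a kept these day 3 calls under each alternative in which they were measured. Ifitm3 and Bst2 were not measured at a minimum of 50 UMIs. Ifitm3, Bst2, H2-K1 and B2m stood below the other barcodes in each library, and the part of free RNA in their mast cell values was not tested; the summed macrophage markers of the mast cells were lower on day 3, as given above.

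**Figure D4:**
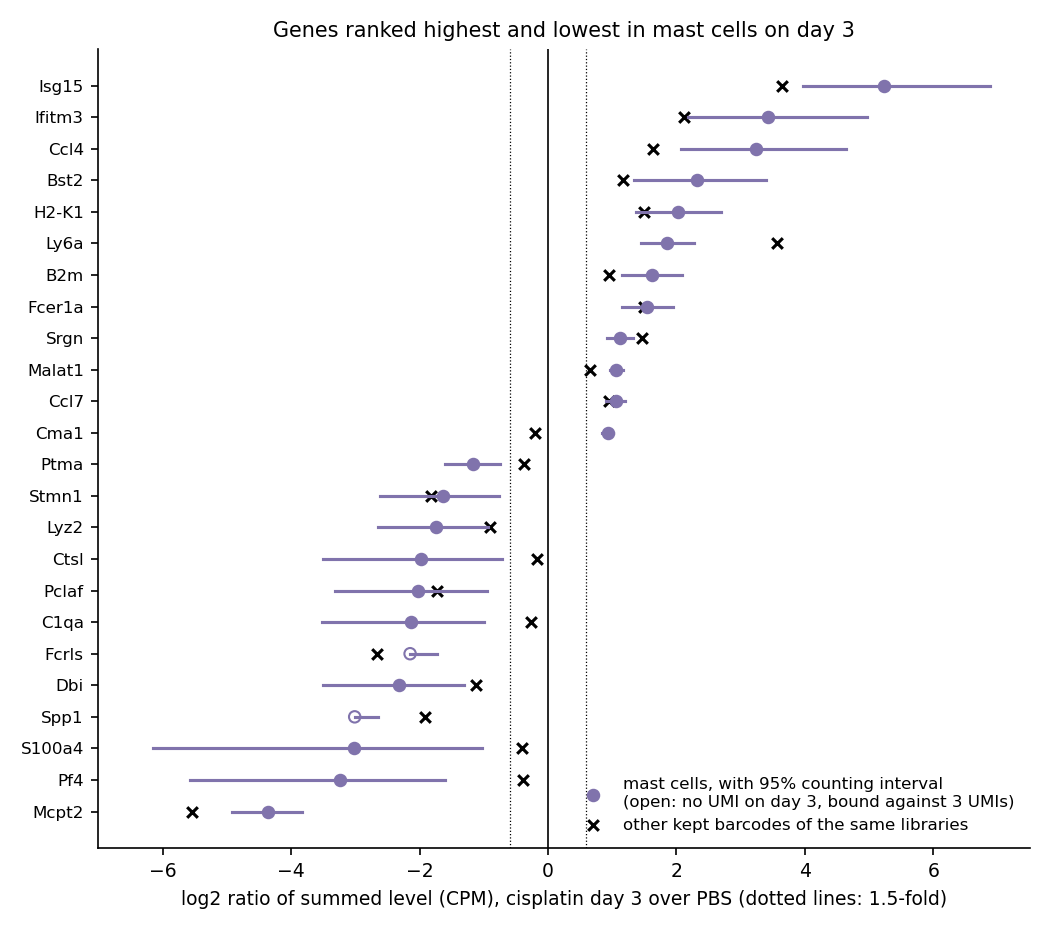
The genes ranked highest and lowest in mast cells on day 3 against PBS, as log2 ratios of CPM with 95% counting intervals, beside the same ratio in the other kept barcodes. Isg15, Ifitm3 and Ccl4 are highest and Mcpt2 lowest, and TMM and DESeq2 scaling move the mast cell ratios by −0.11 and −0.13.

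The promoters of Isg15 (chr4:156200819-156201068), Bst2 (chr8:71537473-71537722) and Ifitm3 (chr7:141010745-141010994) are shown because these genes are on the type I interferon list and were called higher on day 3. The shared direction of these genes carries no weight, as given above. All are on the minus strand of GRCm38.p6, from RefSeq. Capitals mark GAAA followed after any 2 bases by GAAA, the core of the interferon-stimulated response element, searched on both strands; matches within a run of capitals overlap.
Isg15: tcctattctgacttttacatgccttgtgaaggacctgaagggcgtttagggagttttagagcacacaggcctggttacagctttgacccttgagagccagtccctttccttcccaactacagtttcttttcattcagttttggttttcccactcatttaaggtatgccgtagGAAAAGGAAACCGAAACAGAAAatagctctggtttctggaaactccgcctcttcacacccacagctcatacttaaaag
Bst2: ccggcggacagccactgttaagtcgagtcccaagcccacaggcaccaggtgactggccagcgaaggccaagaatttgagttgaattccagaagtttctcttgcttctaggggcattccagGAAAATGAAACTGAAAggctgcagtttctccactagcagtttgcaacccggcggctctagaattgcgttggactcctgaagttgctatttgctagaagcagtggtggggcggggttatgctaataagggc
Ifitm3: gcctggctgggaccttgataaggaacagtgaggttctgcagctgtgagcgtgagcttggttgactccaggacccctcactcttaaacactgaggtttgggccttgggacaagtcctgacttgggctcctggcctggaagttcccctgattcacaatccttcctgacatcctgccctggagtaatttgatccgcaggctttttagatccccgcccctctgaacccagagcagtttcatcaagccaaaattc
Isg15 held 3 overlapping matches, Bst2 2 and Ifitm3 0, and 2.98% of the 32851 windows held at least 1. That the letters are not in the Ifitm3 window says nothing of its regulation.

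The inducible heat shock genes Hspa1a and Hspa1b were higher on day 1 than in PBS and lower on day 3 than on day 1. Hspa1b, an inducible HSP70, had 208 CPM in PBS, 901 CPM on day 1 and 0 UMIs on day 3, found in 5 of 26, 41 of 61 and 0 of 13 cells. It was 4.34-fold higher on day 1 than in PBS (2.57 to 7.88), and on day 3 at least 13.1-fold lower than on day 1 against the floor of 3 UMIs. Hspa1a, its near-identical copy, had 18, 183 and 2 UMIs, with a day 3 over day 1 log2 ratio of −3.98 (−7.04 to −2.11). As the 2 coding sequences are nearly identical, reads could be split between them. In the other barcodes Hspa1b had 426, 1111 and 193 CPM. Of the 15 heat shock genes measured, 2 were higher (beside 3.72% of all genes) and 0 lower on day 1 against PBS. Their median log2 ratio on day 1 was −0.07, or 0.21 under TMM. On day 3 against day 1, 0 were higher and 7 lower (beside 4.83%), with a median of −0.88. On day 3 against PBS 4 of 9 were lower, beside 13.3% of all genes. Without the richest cell the calls of Dnajb1 on day 3 were lost against both libraries, as were those of Hspa1a against PBS and Hspb1 against day 1. For Hspa1b, day 1 was highest and day 3 lowest both in mast cells and in the other barcodes, and the part of free RNA in the mast cell values was not tested.

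The Hspa1b promoter (chr17:34959239-34959488, minus strand, GRCm38.p6, RefSeq) held 1 GAANNTTC, the heat shock element core, in capitals; it reads the same on both strands, and 6.69% of all windows held it.
Hspa1b: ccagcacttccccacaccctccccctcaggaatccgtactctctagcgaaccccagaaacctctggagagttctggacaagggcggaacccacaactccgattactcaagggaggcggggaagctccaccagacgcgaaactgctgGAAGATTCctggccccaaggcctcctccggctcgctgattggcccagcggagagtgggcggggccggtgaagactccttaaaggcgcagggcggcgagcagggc
The Hspa1a window (chr17:34972157-34972406) also held 1.

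Of the p53 target list, which bears on a drug that damages DNA, 6, 3 and 6 genes were measured on day 1 against PBS, day 3 against PBS and day 3 against day 1. Cdkn1a, the p21 inhibitor of cyclin-dependent kinases, had 291 CPM in PBS, 459 CPM on day 1 and 734 CPM on day 3 and was 2.52-fold higher on day 3 than in PBS (1.41 to 4.6). On day 1 its ratio of 1.58 had an interval of 0.984 to 2.64 and was not called. The other barcodes had 290, 697 and 1074 CPM of Cdkn1a. Gdf15 had 1, 27 and 10 UMIs, with a day 1 over PBS ratio of 7.7 (1.27 to 315), a call lost without its richest cell. Mdm2 had 3, 29 and 7 UMIs and was not called.

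Several genes of the cell cycle were lower after cisplatin. Pclaf, a partner of the replication clamp, had 748 CPM in PBS, 273 CPM on day 1 and 183 CPM on day 3 and was 2.74-fold lower on day 1 and 4.08-fold lower on day 3 than in PBS. Hmgb2, a chromatin protein of dividing cells, was 2.25-fold lower on day 1 and 2.72-fold lower on day 3 than in PBS; 7 of its 10 day 3 UMIs came from 1 cell, and leaving out the richest cell gave a day 3 log2 ratio of −2.95 in place of −1.44. Of 8 measured genes of the G2 and M phase list, 0 were higher and 3 lower on day 1 against PBS, beside 5.42% of all genes lower. Their median was −0.99, beside −0.05 over all genes. The 3 were Cdca8, Hmgb2 and Tubb4b, and the Tubb4b call was lost without its richest cell. Of the 2 genes of this list measured on day 3 against PBS, Hmgb2 was lower. Mki67 had only 4, 12 and 1 UMIs in mast cells. Of 9 glycolysis genes 0 were higher and 5 lower on day 1 against PBS, beside 5.42% of all genes lower, among them Pgk1 (2.06-fold) and Gapdh (1.7-fold). The Gapdh and Pgam1 calls were lost under TMM, that of Pgam1 also without the macrophage-rich cells, and that of Tpi1 without its richest cell. In the other barcodes Pclaf and Gapdh were also at lower levels on day 1, 53.6 and 1648 CPM, against 147 and 2145 CPM in PBS.

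Ribosomal protein genes were lower together on day 3. They took 18.1% of mast cell UMIs on day 3, against 25.6% in PBS, and 36 of 79 were lower and 0 higher. That is 45.6% beside 13.3% of all genes, which include the ribosomal protein genes and are not matched for UMI counts. The median log2 ratio of the ribosomal protein genes was −0.52, and −0.43 in the other barcodes. There they took 15.4% on day 3 against 20.7% in PBS. On day 1 against PBS 1 of 83 was lower, and the share was 25.6% in both. The nuclear RNA Malat1 had 19643, 34685 and 41094 CPM in PBS, day 1 and day 3 and was 2.09-fold higher on day 3 than in PBS (1.95 to 2.24); the other barcodes had 13624, 24504 and 21492 CPM. The mitochondrial shares given above also differ between these libraries, and the part of RNA quality in these values was not tested.

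Macrophage genes were lower in the day 3 mast cells. Of 7 measured markers, 6 were lower than in PBS and 0 higher, beside 13.3% of all genes lower. On day 1 against PBS, 1 of 13 was higher and 3 were lower, beside 3.72% and 5.42% of all genes. Apoe was the higher one, with 997, 1957 and 619 CPM in PBS, day 1 and day 3 mast cells. C1qc, Mrc1 and Trem2 were lower, and the Mrc1 and Trem2 calls were lost under TMM. Lyz2 had 1150 CPM in PBS, 1040 CPM on day 1 and 344 CPM on day 3, and C1qa 706, 676 and 161 CPM, all below the 9881, 9506 and 5265 CPM of Lyz2 and the 5379, 5078 and 4457 CPM of C1qa in the other barcodes. The MHC class II gene H2-Aa had 2, 53 and 8 UMIs in mast cells, 25 of the 53 from 1 day 1 cell, and 27.7, 209 and 183 CPM, against 186, 685 and 1916 CPM in the other barcodes. The Lyz2 and C1qa log2 ratios on day 3 against PBS were −1.74 and −2.14; without the macrophage-rich cells that of C1qa was −1.03 and no longer called, and with equal weight for each cell that of Lyz2 was −0.67. Expression of these genes by mast cells cannot be told apart from free RNA at these levels.

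**Figure D5:**
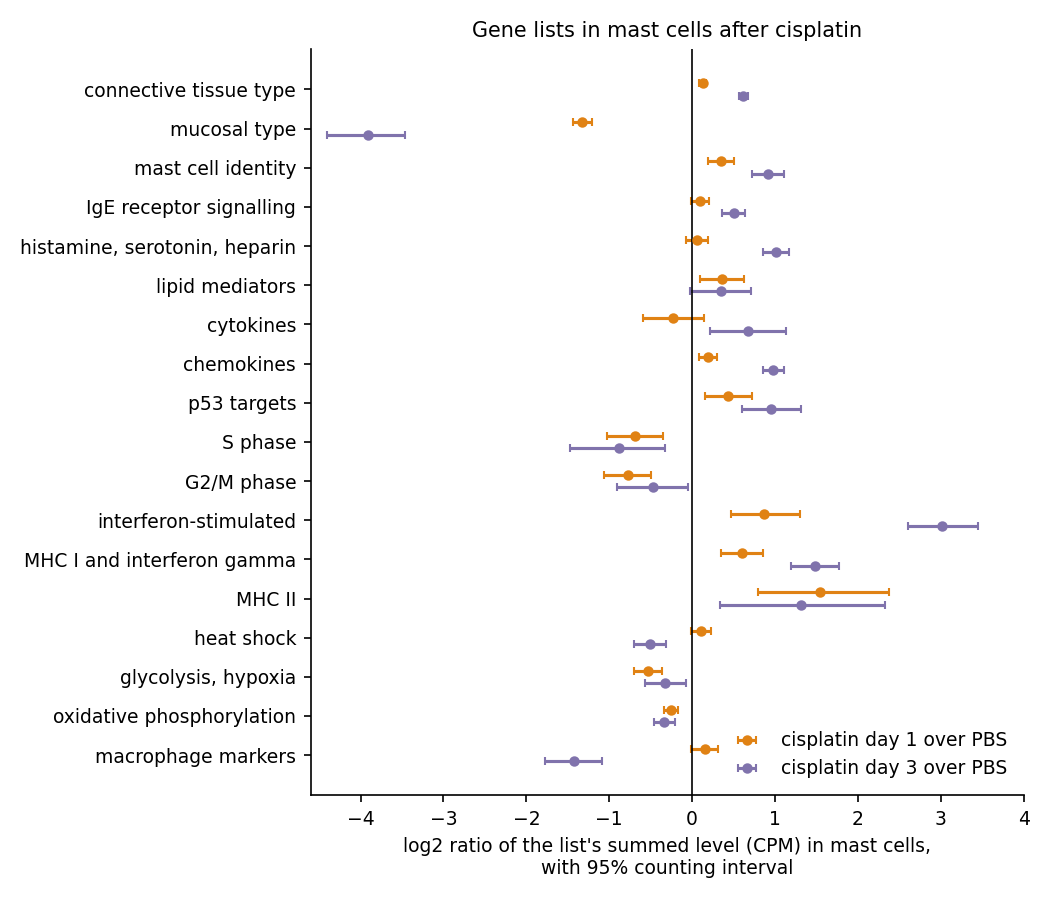
Summed levels of the gene lists in mast cells, as log2 ratios with 95% counting intervals, for day 1 against PBS and day 3 against PBS. The type I interferon list lies highest on day 3 at 3.02 and the mucosal list, most of whose UMIs are Mcpt2, lowest at −3.91. A ratio between −0.28 and 0 on day 1 changes sign under TMM.

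Across the 100 cells, the genes whose level was most like that of Mcpt4 (Pearson r of the log of counts per 10000 plus 1, a description over cells that share a library) were Cma1 at 0.77, Cpa3 at 0.57, Fxyd5 at 0.48, Fcer1g at 0.45, Fcer1a at 0.42 and Srgn at 0.42. Within the libraries, r for Cma1 was 0.41 over 26 PBS cells, 0.85 over 61 day 1 cells and 0.73 over 13 day 3 cells. Mcpt2 had an r of −0.09 with Mcpt4, 0.24 with Tpsb2 and −0.45 with Fcer1a. Within the libraries its r with Fcer1a was −0.28 in PBS, −0.50 on day 1 and 0.14 on day 3. All of these r depend on depth, on the rule and on macrophage RNA.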

How the data were processed

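Single cells sorted from TC-1 tumours were profiled with 10x Genomics 3′ v3 chemistry, with 15000 cells loaded per library and 20000 reads per cell intended, per the labels. The authors deposited raw UMI counts per gene and barcode for 31053 features in 4 libraries. Cell Ranger 3.1.0, Seurat 3.1.2 and the mouse build mm10 are named per the submitters' processing notes, with no role given for Seurat, and the file headers also name Cell Ranger 3.1.0. How reads that match several genes were treated is not given in the sources used here.

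Barcodes were kept at 500 genes or more and at most 10% mitochondrial UMIs, and mast cells were chosen as described above. No doublets were removed; Scrublet scores were used in an alternative only. UMIs were summed over the mast cells of each library and divided by their total (CPM). Ratios carry an exact conditional binomial 95% interval, shares an exact Clopper-Pearson interval. A gene at 0 was set against a floor of 3 counts. Shares of cells with a UMI were taken after thinning each cell to 2000 UMIs. With 1 library per group no test was made. The 12 highest and 12 lowest genes by the interval bound nearer to 1 were named in each comparison, with the measured members of the mast cell lists and up to 4 of every other list; Gm and Rik models, receptor segments and genes of the mitochondrion or of ribosomal proteins were not named by it. The ribosomal protein genes, the genes at under 20 UMIs that the text gives as UMI counts, and the single cells that the text names were chosen after their values were seen. The members and lists were chosen with earlier results of these data known.

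Total UMIs were 59915831 for PBS, 82493626 for day 1, 36587207 for day 3 and 16153484 for day 7; mast cells held 72187, 252989 and 43607 UMIs in the first 3, so the day 3 comparisons rest on the fewest molecules. The intervals were checked on simulated data drawn with counting error only. That check held no spread between cells, so it says nothing of how the intervals fare where single cells differ. Promoters are RefSeq windows of GRCm38.p6 and gene coordinates are those of GENCODE vM21. Alternatives were TMM factors (edgeR 4.0.16) and size factors (DESeq2 1.42.0, both R 4.3.3) in place of totals, other filters, equal weight per cell, leaving out the richest cell of each gene, macrophage-rich barcodes or the highest Scrublet scores. Python 3.11.15, NumPy 2.4.6, SciPy 1.17.1, pandas 2.3.3 and scanpy 1.11.5 were used.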

Additional observations from a re-analysis of the deposited data

Results flagged for a closer look

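In several genes the mast cells and the other kept barcodes of the same libraries differed in opposite directions; with 1 library per group the difference between them was not tested. On day 1 against PBS, the log2 ratio in mast cells was −1.37 for Mcpt2, beside 1.39 in the other barcodes, where it had at most 3.55 CPM. It was −1.47 for Egr1 (0.74 in the other barcodes), −1.81 for Ccl1 (1.64), and −0.87 for Gadd45b (0.60). Ccl1 was found in 3 mast cells of each of these libraries, and without its richest cell the Gadd45b value was 0.0021. On day 3 against PBS it was −1.30 for Cxcl2 (1.00), 0.91 for the tetraspanin Cd81 (−1.49), −1.59 for Ier2 (0.79) and −0.89 for the NF-κB inhibitor Nfkbia (1.12), and all 4 were no longer called without the richest cell of the gene. On day 3 against day 1 it was −2.79 for Ccl5 (1.99), from 1 UMI in the day 3 mast cells.

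Barcodes that met the marker share but failed the gene or mitochondrial limit numbered 6 in the PBS library and 20 on day 1, beside 3 on day 3 and 0 on day 7. Of the 20, 17 exceeded the mitochondrial limit and 13 had under 500 genes; of the 6, 1 and 6 did.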

How the results depend on the processing

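No paired analysis was possible because each group is 1 library. Of 170 calls on named genes, 103 held under each alternative in which the gene was measured and 67 were lost under at least 1. Of the 67, 51 were lost without the richest cell of the gene and 24 without the macrophage-rich cells. A gene that was not measured in an alternative was not counted as lost under it. Without the macrophage-rich cells this was so for C1qc, Ctsl, Fcrls, Pf4 and Spp1 on day 3 against PBS, among others. Mcpt2 and Isg15 held in all 3 comparisons. With 13 mast cells on day 3, depth limits which genes can be measured, 735 against 1772 for day 1 over PBS. Shares of mast cells were 0.158% for PBS and 0.135% for day 3 at 1000 genes or more, 0.249% for day 1 and 0.0913% for day 3 at 5% mitochondrial UMIs or less, and 3.34%, 7.14% and 1.2% for PBS, day 1 and day 3 without barcodes rich in macrophage markers, which leaves out most barcodes. On day 1 against PBS, TMM gave 158 genes higher and 37 lower, DESeq2 size factors 63 lower, equal weight per cell (called by fold alone) 354 higher and 310 lower, a minimum of 50 UMIs 37 higher and no minimum 164 lower. On day 3 against PBS, equal weight gave 113 higher and 195 lower, 50 UMIs 32 higher and no minimum 111 higher. On day 3 against day 1, TMM gave 26 higher and 253 lower, DESeq2 41 and 171, equal weight 284 and 428, no minimum 135 higher, and leaving out the richest cell 50 higher. Under TMM or DESeq2, 17 of 79 list medians changed sign, 11 of them for day 3 against day 1; that of oxidative phosphorylation on day 1 was 0.052 under TMM. With no minimum, where most added genes have few UMIs, the day 1 medians were −0.59 for activating and inhibitory receptors, −1.07 for p53 targets, −1.39 for type I interferon and −1.07 for the BCL2 family, the day 3 over PBS median of adhesion genes was −0.12, and the day 3 over day 1 median of lipid mediators was 1.43. Gadd45b on day 1 was 0.0021 without its richest cell. The cause was not tested for the other changes.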

Other observations

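Of 16 lipid mediator genes of mast cells 3 were measured in each comparison. Pla2g7, which inactivates platelet-activating factor, had 111 CPM in PBS, 328 CPM on day 1 and 298 CPM on day 3 mast cells, with log2 ratios to PBS of 1.57 on day 1 and 1.43 on day 3. Both were called, and the day 3 call was lost under TMM, under DESeq2 size factors, without the richest cell and without the macrophage-rich cells. Alox5ap, the 5-lipoxygenase activating protein that leukotriene synthesis needs, had 90, 431 and 73 UMIs in the PBS, day 1 and day 3 mast cells, with log2 ratios of 0.45 on day 1 (0.12 to 0.79) and 0.43 on day 3 (−0.04 to 0.89) against PBS, neither of them called. Runx1, a transcription factor of the haematopoietic lineage, had 208 CPM in PBS, 249 CPM on day 1 and 550 CPM on day 3 and was 2.65-fold higher on day 3 than in PBS (1.33 to 5.43), while the other barcodes had 134, 163 and 164 CPM. Gata2, which mast cells need, had 9, 55 and 9 UMIs, and its day 1 over PBS log2 ratio of 0.80 (−0.23 to 2.00) was not called.

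The carbonic anhydrase-related gene Car8, which the rule did not use, was found in 81 of the 100 mast cells and had 582, 522 and 940 CPM in the PBS, day 1 and day 3 mast cells, against 0.105, 0.211 and 0.116 CPM in the other barcodes. In the day 7 library, where no mast cell was found, the other barcodes held 5 UMIs of Cma1 and 0 of Mcpt4, Cpa3 and Tpsb2.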
